A study of Mus musculus with 9 samples.

Results

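Iron storage and transport genes were followed across CD45+ cells, the leukocyte fraction, of mouse sarcomas treated with doxorubicin alone or with ADU-S100, an agonist of the innate DNA-sensing adaptor STING. The 8 genes were taken by symbol from the read count table: Fth1 and Ftl1 (the ferritin chains), Slc40a1 (ferroportin), Tfrc (transferrin receptor 1), Slc11a1 and Slc11a2 (divalent metal transporters), Ireb2 (iron regulatory protein 2) and Gpx4 (glutathione peroxidase 4). They were 8 of 45777 genes in the table, and 8 of 8 passed the filter on low counts that left 16373 genes for testing. The rule used no measured value.

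WEHI-164, a mouse fibrosarcoma cell line, was grafted under the skin of BALB/c mice, and all 3 groups carried these grafts. The control group received vehicle, and the doxorubicin group received doxorubicin at 5 mg/kg into the tumor. The doxorubicin + ADU-S100 group received the same together with injections of 25 µg of ADU-S100 into the tumor. Doxorubicin was scheduled weekly and ADU-S100 more than once a week. Tumors were harvested 7 days after treatment, and CD45+ cells were enriched on magnetic beads before polyadenylated RNA was sequenced from 3 libraries per group. The model rests on a single cell line, and the libraries are called biological triplicates without a statement that each came from 1 mouse. No sequenced group received ADU-S100 alone, which the study gave only in a repeat of the tumor growth experiment. P-values measure the spread between these libraries, which may be technical in part.

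Cells take up transferrin-bound iron through Tfrc and move it out of the endosome through Slc11a2, store it in cages of ferritin heavy and light chains, and release it through Slc40a1, the only known iron exporter of mammals. In macrophages, which recycle iron from old red cells and withhold it from microbes, Slc11a1 also moves divalent metal across the phagosome membrane. The iron regulatory proteins, encoded by Aco1 and Ireb2, bind hairpins called iron-responsive elements when iron is scarce. Binding in the 5′ untranslated region (UTR) blocks translation of ferritin and ferroportin, and binding in the 3′ UTR stabilizes Tfrc messenger RNA. The counts here measure RNA, so control of translation is outside what they show.

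The hairpins are shown because their place in a transcript goes with the kind of control described above. UTRs of GENCODE transcripts of GRCm38 (mm10) were searched on the transcribed strand for a C, any 5 bases and the loop CAGTGN, followed by 5 bases that pair with the 5 bases before the loop, with G-T pairs allowed. In the 5′ UTR, 3 of the 8 genes held a match, against 28 of 20544 genes (0.136%), and in the 3′ UTR 1 of the 8 held one, against 127 of 20925 genes (0.607%). The genes with a match were those named above as bound by the iron regulatory proteins, so these shares are a description and not a test. Each element is printed 5′ to 3′ with 29 bases, and capitals mark the bulged C and the 6-base loop.
Fth1, 5′ UTR, chr19:9982732-9982760, plus strand: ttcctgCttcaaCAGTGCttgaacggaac
Ftl1, 5′ UTR, exon 1, chr7:45459779-45459807, minus strand: gtcttgCttcaaCAGTGTttgaacggaac
Slc40a1, 5′ UTR, exon 1, chr1:45925465-45925493, minus strand: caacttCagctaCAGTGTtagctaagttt
Tfrc, 3′ UTR, exon 19, chr16:32631219-32631247, plus strand: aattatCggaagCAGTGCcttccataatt
Tfrc, 3′ UTR, exon 19, chr16:32631598-32631626, plus strand: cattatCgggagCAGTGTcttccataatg
Tfrc, 3′ UTR, exon 19, chr16:32631663-32631691, plus strand: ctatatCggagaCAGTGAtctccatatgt
Tfrc, 3′ UTR, exon 19, chr16:32631710-32631738, plus strand: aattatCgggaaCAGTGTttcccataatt
The 4 Tfrc elements lay within a single exon. A match is a description of the letters and not a measured site, and the absence of these letters from a UTR says nothing about the protein. The search asked for this loop and for all 5 stem bases to pair, so elements of another shape were missed. Genes without a match may therefore hold an element, and Tfrc may hold more than these 4.

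Libraries held 50110494 to 69456603 counts. Levels are given as CPM, counts brought to a common library size of 1000000 after TMM scaling, which assumes that most genes do not differ. The 5 leukocyte markers summed to between 2534 CPM (doxorubicin + ADU-S100 replicate 3) and 5858 CPM, and the 15 macrophage markers to between 10492 CPM (the same library) and 28250.5 CPM (doxorubicin replicate 2), so the labelled cells were present in all 9. A list of 15 fibroblast and sarcoma cell genes summed to 190, 1676 and 293 CPM in control replicates 1 to 3. It summed to 983, 183 and 852 CPM in the doxorubicin libraries and to 174, 254 and 2312 CPM in the doxorubicin + ADU-S100 libraries. CD45+ cells should lack most of these genes, but the list includes Thy1, which mouse T cells also express. None of the 15 genes was at 0 in any library. Erythroid genes, which could carry Tfrc and Slc40a1 RNA of red cell precursors, summed to at most 17.3 CPM.

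Between genes, levels were compared per kilobase of messenger RNA. Ftl1 was highest, with a mean of 6160.0 CPM per kb over the 9 libraries, followed by Fth1 (5558), Gpx4 (208), Slc11a1 (87.6), Tfrc (10.3), Ireb2 (9.90), Slc11a2 (9.05) and Slc40a1 (2.83). The ranges over libraries separated only Fth1 from Gpx4 and Slc11a1 from Tfrc. Among the neighbors whose ranges overlapped, Ftl1 exceeded Fth1 within 7 of 9 libraries, Tfrc exceeded Ireb2 within 5 of 9 and Ireb2 exceeded Slc11a2 within 8 of 9, while Gpx4 exceeded Slc11a1 and Slc11a2 exceeded Slc40a1 within all 9. The ferritin chains together made up 0.822% to 1.34% of all counts in a library.

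No member was called different between groups, and by edgeR no other gene was either. By edgeR's quasi-likelihood test with Benjamini-Hochberg adjustment over all genes, 0 of 8 had an adjusted p under 0.05 in any of the 3 comparisons, and the share of all genes called was 0% in each. At an unadjusted p under 0.05, 0 of 8 members passed, against 4.44% of all genes for doxorubicin + ADU-S100 versus control, 2.75% for the same treatment versus doxorubicin alone and 0.708% for doxorubicin versus control. At the thresholds of the study, which asked for more than a 2-fold difference and an unadjusted p under 0.05, 0 of 8 passed, against 2.17%, 1.22% and 0.452% of all genes. The 3 libraries of one group stood apart from the 3 of the other for 0 of 8 members, against 8.33%, 6.16% and 4.39% of all genes. DESeq2 called 0 members, also at an unadjusted p under 0.05. Limma-voom with quality weights called 0 at an adjusted p under 0.05 and 2 at an unadjusted one, Tfrc and Slc11a1 in doxorubicin + ADU-S100 versus control.

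**Figure D1:**
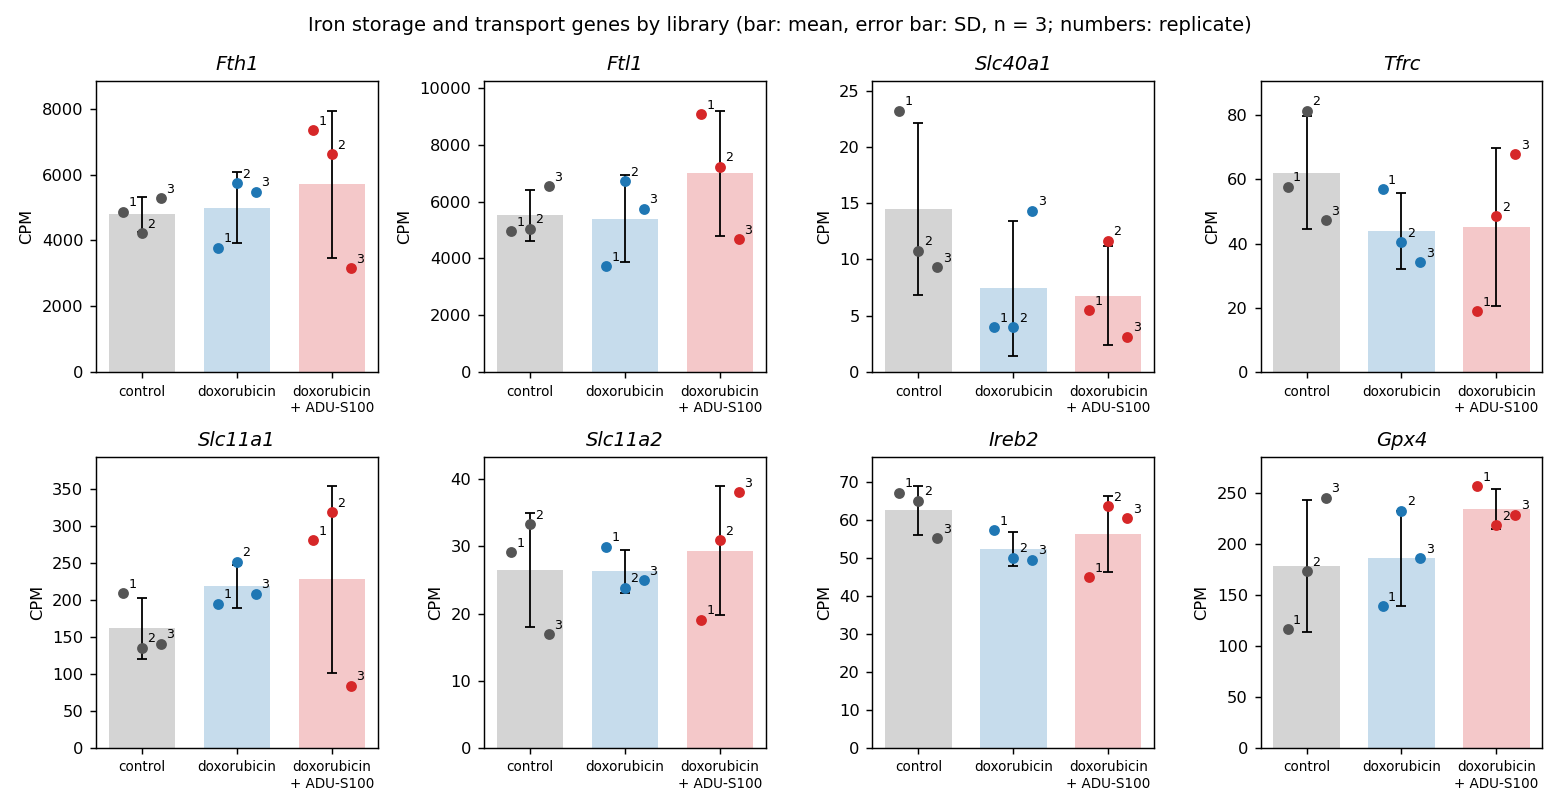
CPM of each of the 8 genes in each of the 9 libraries. Points are libraries with their replicate number, bars are group means and error bars are SD (n = 3). For every gene the points of the 3 groups overlap, and doxorubicin + ADU-S100 replicate 3 lies apart from the other 2 libraries of its group for Fth1 and Slc11a1.

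Of the storage genes, Fth1 (gene ID 14319, chromosome 19, 9980600 to 9985111) encodes the heavy chain, which oxidizes iron as it enters the cage. Its level was 4866, 4216 and 5283 CPM in the control libraries, 3778, 5735 and 5484 CPM in the doxorubicin libraries, and 7345, 6614 and 3149.6 CPM in the doxorubicin + ADU-S100 libraries. Both the highest and the lowest library of the 9 belonged to doxorubicin + ADU-S100. The group means were 4788 ± 537, 4999 ± 1065 and 5703 ± 2241 CPM (SD, n = 3). The log2 fold change was 0.25 (SE 0.35) for doxorubicin + ADU-S100 versus control and 0.06 (SE 0.35) for doxorubicin versus control.

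Ftl1 (gene ID 14325, chromosome 7, 45457944 to 45459886) encodes the light chain, which helps iron settle into the mineral core. It reached 4952, 5047 and 6535 CPM in control, 3713, 6712 and 5742 CPM after doxorubicin, and 9073, 7223 and 4668 CPM after doxorubicin + ADU-S100. Replicates 1 and 2 of doxorubicin + ADU-S100 lay above every other library, and replicate 3 lay below all 3 controls. On the log2 scale the fold change was 0.34 (SE 0.34, 95% confidence interval -0.43 to 1.11) versus control and 0.38 (SE 0.34) versus doxorubicin. For doxorubicin versus control it was -0.03 (SE 0.34).

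The balance of the chains overlapped between groups. The ratio of Fth1 to Ftl1 counts was 0.875 ± 0.0938 in control, 0.942 ± 0.0822 after doxorubicin and 0.800 ± 0.121 after doxorubicin + ADU-S100 (SD, n = 3), and the lowest value, 0.675, was in doxorubicin + ADU-S100 replicate 3. Reads may be divided between a gene and its near-identical copies, so the levels of Ftl1 and Gpx4 are uncertain to that extent. Ftl1-ps1 and Ftl2-ps held 2.97% to 4.03% and 1.89% to 2.53% of the Ftl1 count. Adding the Ftl1 copies to the Ftl1 count, which can only lower the ratio, gave 0.638 to 0.955 over the 9 libraries. Copies of Fth1 were not counted, so their share of its reads is not known.

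Slc40a1 (gene ID 53945, chromosome 1, 45908070 to 45926532), the exporter through which macrophages return iron to plasma, had the largest fold changes versus control among the 8 genes and the widest spread. Its level was 23.2, 10.8 and 9.33 CPM in control, 4.00, 3.98 and 14.3 CPM after doxorubicin, and 5.49, 11.7 and 3.15 CPM after doxorubicin + ADU-S100. In each treated group 2 libraries lay below all controls and 1 lay among them. Counts were 205 to 1311 per library, so counting error was small beside these gaps. The fitted log2 fold change was -1.10 (SE 0.66) for doxorubicin + ADU-S100 versus control, with a 95% confidence interval of 0.168-fold to 1.31-fold and an unadjusted p = 0.129 (edgeR, adjusted p = 0.948). For doxorubicin versus control it was -0.96 (SE 0.65, edgeR unadjusted p = 0.176).

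The Slc40a1 differences turned on single libraries. Without doxorubicin replicate 3 the log2 fold change of doxorubicin versus control was -1.86 (edgeR unadjusted p = 0.0183, adjusted p = 1), past the thresholds of the study, and without control replicate 1 it was -0.44. Without replicate 2 of doxorubicin + ADU-S100 the difference from control was -1.74 (edgeR unadjusted p = 0.0379, adjusted p = 0.798), and without control replicate 1 it was -0.57. Over all alternatives the adjusted p lay between 0.575 and 1 for doxorubicin + ADU-S100 and between 0.891 and 1 for doxorubicin. Treated groups were compared with the same 3 controls, so both differences shared the high control replicate 1.

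Tfrc (gene ID 22042, chromosome 16, 32608896 to 32632794), the receptor for iron-loaded transferrin and a gene of dividing cells, gave 57.7, 81.4 and 47.2 CPM in control, 57.0, 40.4 and 34.2 CPM after doxorubicin, and 18.9, 48.5 and 67.8 CPM after doxorubicin + ADU-S100. All 3 doxorubicin libraries were below the control median, 1 of them above the lowest control, and the doxorubicin + ADU-S100 libraries spanned from below to within the control range. Its log2 fold change was -0.50 (SE 0.42) for doxorubicin versus control, -0.46 (SE 0.42) for doxorubicin + ADU-S100 versus control and 0.04 (SE 0.42) between the treated groups. With limma-voom quality weights the change of doxorubicin + ADU-S100 versus control was -0.95 (unadjusted p = 0.0451, limma-voom adjusted p = 0.464). Over all alternatives the adjusted p of that comparison was 0.456 to 1.

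A list of 10 cell cycle genes summed to 614 and 626 CPM in doxorubicin + ADU-S100 replicates 1 and 2, to 1205 CPM in replicate 3, to 953 to 1086 CPM in control and to 693 to 904 CPM after doxorubicin. The library lowest in Tfrc, doxorubicin + ADU-S100 replicate 1, was thus the lowest in cell cycle genes. Replicate 2 had nearly the same cell cycle sum but 48.5 CPM of Tfrc, against 18.9 CPM in replicate 1. The part of cell division in the Tfrc levels was not tested. Tfrc was 6.22 ± 2.42 counts per 1000 ferritin counts in control, 4.64 ± 2.58 after doxorubicin and 4.44 ± 3.85 after doxorubicin + ADU-S100 (SD, n = 3). Within doxorubicin + ADU-S100 this ratio ran from 1.15 in replicate 1 to 8.67 in replicate 3, as wide as over all 9 libraries except for control replicate 2 (8.79).

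Slc11a2 (gene ID 18174, chromosome 15, 100387898 to 100424209), which carries iron out of the endosome after transferrin uptake, had overlapping levels in the 3 groups. Its values were 29.2, 33.3 and 16.9 CPM in control, 29.95, 23.8 and 25.01 CPM after doxorubicin, and 19.1, 30.9 and 38.1 CPM after doxorubicin + ADU-S100. The lowest and highest libraries came from control and doxorubicin + ADU-S100, and all groups overlapped. On the log2 scale the change was 0.15 (SE 0.31) for doxorubicin + ADU-S100 versus control, with a 95% confidence interval of -0.55 to 0.85, and -0.01 (SE 0.31) for doxorubicin versus control.

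Slc11a1 (gene ID 18173, chromosome 1, 74375014 to 74386057), the phagosomal metal transporter of macrophages and other myeloid cells, had 209, 135 and 141 CPM in control, 195, 252 and 209 CPM after doxorubicin, and 281, 319 and 83.9 CPM after doxorubicin + ADU-S100. All 3 doxorubicin libraries were above the control median, and in doxorubicin + ADU-S100 replicates 1 and 2 were the highest of the 9 while replicate 3 was the lowest. Slc11a1 had a log2 fold change of 0.50 (SE 0.43) for doxorubicin + ADU-S100 versus control and 0.43 (SE 0.43) for doxorubicin versus control. Without replicate 3 of doxorubicin + ADU-S100 the former was 0.89 (edgeR unadjusted p = 0.00488, adjusted p = 0.242). With limma-voom it was 0.73 (unadjusted p = 0.0432, adjusted p = 0.463), and over all alternatives the adjusted p was 0.242 to 1.

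Ireb2 (gene ID 64602, chromosome 9, 54862658 to 54912534) encodes iron regulatory protein 2, whose protein is broken down when iron is plentiful. It was the steadiest of the 8 genes. Its level was 67.3, 65.1 and 55.3 CPM in control, 57.4, 50.1 and 49.6 CPM after doxorubicin, and 45.0, 63.7 and 60.5 CPM after doxorubicin + ADU-S100. No treated library reached the control median, and 3 of the 6 lay above the lowest control. Its fitted log2 fold change was -0.26 (SE 0.18, 95% confidence interval -0.66 to 0.15) for doxorubicin versus control and -0.15 (SE 0.18) for doxorubicin + ADU-S100 versus control. A change of 2-fold in either direction lay outside both intervals.

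Gpx4 (gene ID 625249, chromosome 10, 80047166 to 80056439), a selenoenzyme that reduces lipid peroxides and so restrains ferroptosis, the iron-dependent form of cell death, gave 116, 173 and 245 CPM in control, 139, 232 and 186 CPM after doxorubicin, and 257, 219 and 228 CPM after doxorubicin + ADU-S100. All 3 doxorubicin + ADU-S100 libraries exceeded the median of each other group, while the highest control and the highest doxorubicin library exceeded 2 of them. The log2 fold change was 0.40 (SE 0.29) versus control and 0.34 (SE 0.29) versus doxorubicin. Without control replicate 3 the former was 0.69 (edgeR unadjusted p = 0.0387, adjusted p = 0.797), in a range of adjusted p over all alternatives of 0.496 to 1. Gpx4-ps2, a pseudogene copy, held 12.1% to 16.3% of the Gpx4 count.

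**Figure D2:**
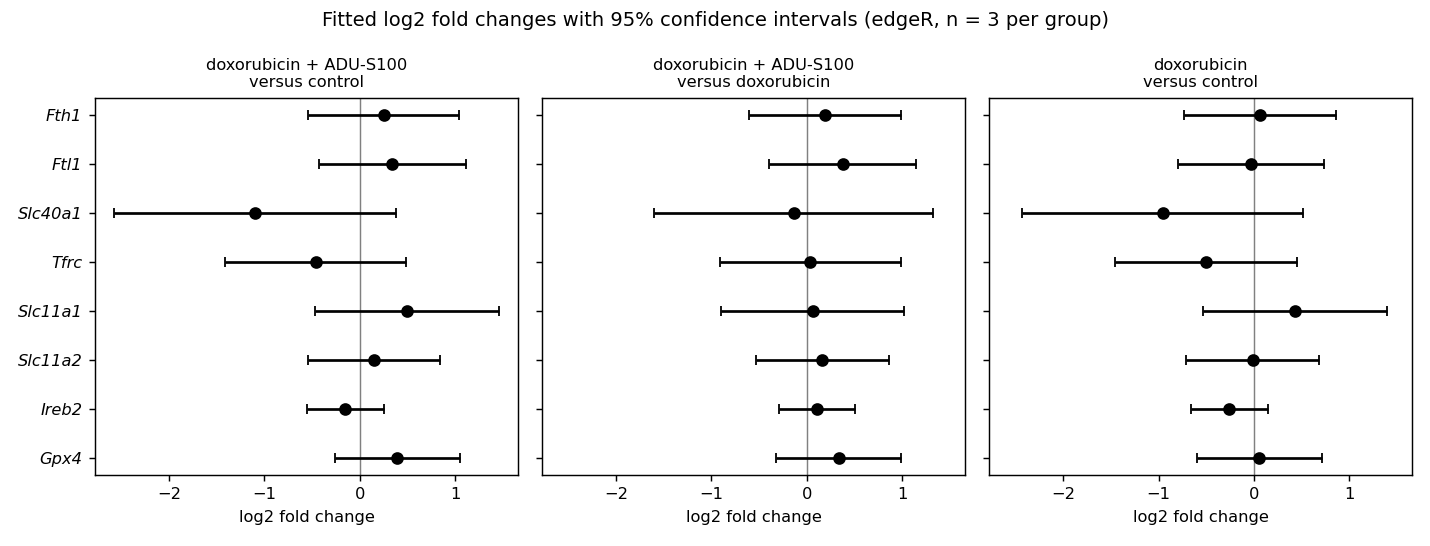
Fitted log2 fold changes of the 8 genes in the 3 comparisons (points) with 95% confidence intervals (bars; edgeR, n = 3 per group). Every interval crosses 0, the widest belongs to Slc40a1 (-2.58 to 0.38 for doxorubicin + ADU-S100 versus control) and the narrowest to Ireb2.

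As a group the members had a median log2 fold change of 0.20 for doxorubicin + ADU-S100 versus control, against 0.06 over all genes tested, with 5 of 8 above 0 against 56.9% of all genes. For doxorubicin + ADU-S100 versus doxorubicin the median was 0.13 against 0.07, with 7 of 8 above 0 against 58.6%. For doxorubicin versus control it was -0.02 against -0.01, with 3 of 8 above 0 against 48.9%. The highest library exceeded the lowest by 1.495-fold for Ireb2, by 2.21-fold for Gpx4 to 2.44-fold for Ftl1 in the ferritins, Gpx4 and Slc11a2, by 3.81-fold for Slc11a1, by 4.30-fold for Tfrc and by 7.37-fold for Slc40a1. By the SD of log2 CPM over the 9 libraries, 10.8% of tested genes varied less than Ireb2 and 85.4% varied less than Slc40a1.

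Much of this variation ran within groups. The 3 libraries lowest in Fth1, namely doxorubicin + ADU-S100 replicate 3, doxorubicin replicate 1 and control replicate 2, were the 3 highest in fibroblast and sarcoma cell genes. Doxorubicin replicate 3, the next highest in these genes at 852 CPM, had 5484 CPM of Fth1, above every control. Doxorubicin + ADU-S100 replicate 3 was also the lowest in Slc11a1, Slc40a1, leukocyte markers and macrophage markers, and the highest in Slc11a2 and cell cycle genes. Tfrc was highest in control replicate 2 (81.4 CPM) and doxorubicin + ADU-S100 replicate 3 (67.8 CPM). In bulk RNA, fewer cells of a type and less RNA per cell cannot be told apart.

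In an alternative chosen after seeing the data, the library of each group highest in fibroblast and sarcoma cell genes was left out, which left 2 per group. Doxorubicin replicate 3 was kept, although its 852 CPM in these genes was near the 983 CPM of the omitted doxorubicin replicate 1. The log2 fold change of doxorubicin + ADU-S100 versus control was then 0.46 for Fth1, 0.50 for Ftl1, 0.78 for Slc11a1, -0.64 for Tfrc and -0.17 for Ireb2, each larger in size than with all libraries. It was smaller for Slc40a1 (-0.93) and Slc11a2 (0.12), and 0.39 for Gpx4. The Slc11a1 value had an unadjusted p of 0.0223 (edgeR, adjusted p = 0.486), and 0 of 8 members were called in any comparison. The part of sarcoma cell RNA in the levels of single libraries was not tested.

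**Figure D3:**
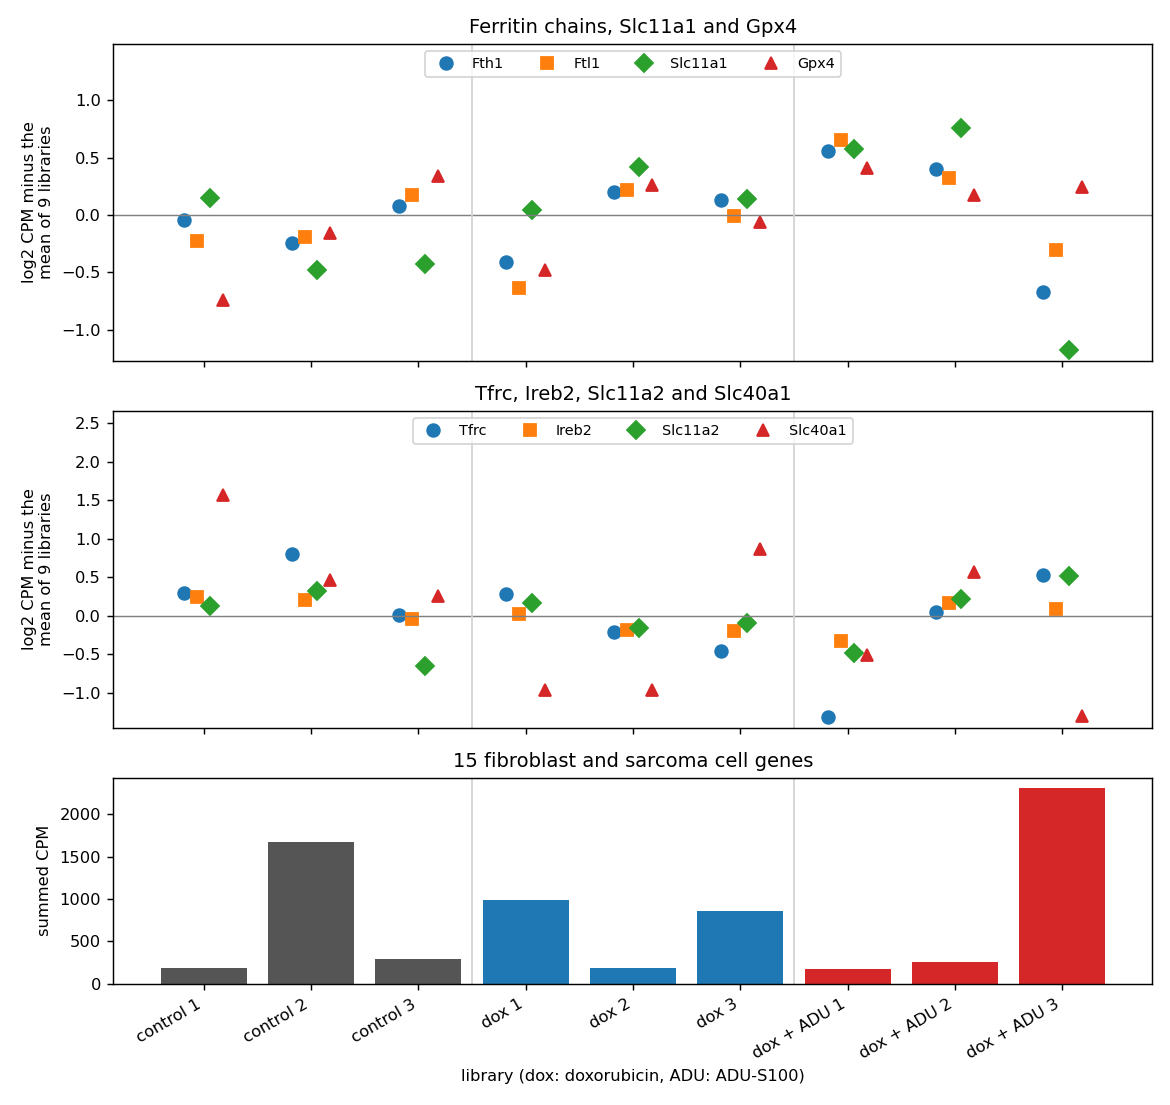
Log2 CPM of each gene minus its mean over the 9 libraries (upper and middle panels) and the summed CPM of 15 fibroblast and sarcoma cell genes (bars, lower panel), by library. Fth1 is lowest in the libraries with the tallest bar of each group, and Slc11a1 lies farthest below its mean in doxorubicin + ADU-S100 replicate 3, where the bar reaches 2312 CPM.

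The genes whose log2 CPM profile over the 9 libraries was most like that of a member were found by Pearson correlation, given as a description since the points share libraries and composition. They were Dleu2 (r = 0.98), Rala and Clec4a2 for Fth1, Sdhaf2 (0.99), Prkrip1 and Vcpkmt for Ftl1, and Lsm14a (0.94), Pcyt1a and Rrm2b for Slc40a1. For Tfrc they were Crot (0.97), Lnpk and Tns1, for Slc11a1 Entpd1 (0.97), Gla and Bst1, for Slc11a2 Nap1l2 (0.95), Gfpt1 and Cyp2j9, and for Ireb2 Btbd10 (0.95), Pbrm1 and Rps6kb1. Gpx4 was most like Lsm7 (0.99), Med30 and its own copy Gpx4-ps2 (0.98).

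Around the 8 members, 67 further genes of iron handling were taken in 6 lists, of which 63 were tested. By edgeR 0 of 63 were called at an adjusted p under 0.05. Their median log2 fold change was 0.05 for doxorubicin + ADU-S100 versus control (0.06 over all genes), 0.00 versus doxorubicin (0.07) and 0.05 for doxorubicin versus control (-0.01). At the thresholds of the study 3 of 63 were lower in doxorubicin + ADU-S100 than in control (background 0.708%), 1 of 63 was lower in doxorubicin than in control (background 0.0916%), 0 of 63 were lower in doxorubicin + ADU-S100 than in doxorubicin (background 0.348%), and 0 of 63 were higher in any comparison (backgrounds 1.46%, 0.867% and 0.36%). At an unadjusted p under 0.05 alone, 3 of 63 passed in doxorubicin + ADU-S100 versus control (4.44% of all genes), 2 of 63 versus doxorubicin (2.75%), 1 higher and 1 lower, and 1 of 63 in doxorubicin versus control (0.708%). Hamp, the hepcidin gene whose product degrades ferroportin, had 2 counts in all, and Hamp2, Hjv and Ftmt had 0, so these 4 were not tested.

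**Figure D4:**
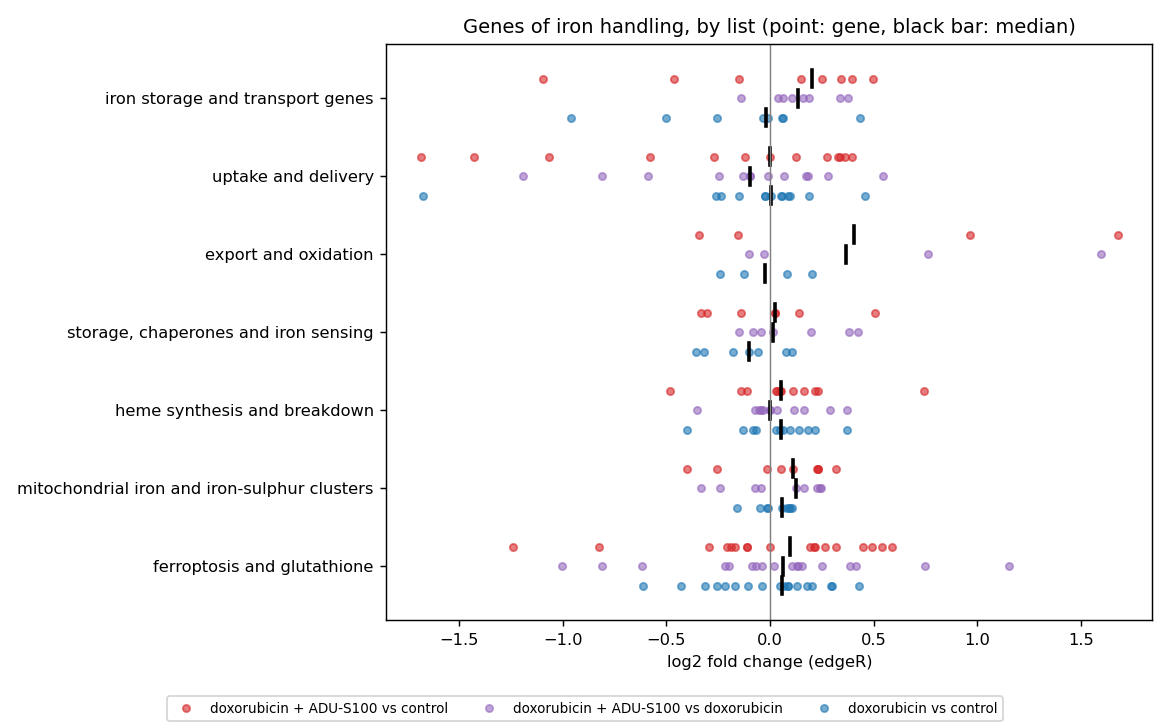
Log2 fold changes (edgeR) of the 8 members and of the 63 tested genes in 6 lists of iron handling, 1 point per gene, for the 3 comparisons, with the median of each list as a black bar. In doxorubicin + ADU-S100 versus control Cd163 lies farthest to the left (-1.68) and Cp farthest to the right (1.68), and the medians of the 2 larger lists lie within 0.10 of 0.

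Among 13 uptake and delivery genes, Slc39a8, a metal importer that can carry iron, had 11.2, 13.8 and 11.7 CPM in control and 2.97, 7.13 and 7.37 CPM after doxorubicin + ADU-S100. These groups did not overlap, which held for 8.33% of all genes, and the log2 fold change was -1.07 (SE 0.38, edgeR unadjusted p = 0.0203, adjusted p = 0.948). Without doxorubicin + ADU-S100 replicate 1 it was -0.81. Cd163, the macrophage receptor for haemoglobin bound to haptoglobin, had 41.6, 11.4 and 23.4 CPM in control, 11.3, 10.7 and 1.98 CPM after doxorubicin, and 7.74, 11.96 and 4.12 CPM after doxorubicin + ADU-S100.

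The doxorubicin libraries were all below the controls in Cd163, with 11.3 and 11.4 CPM in the nearest pair. These groups did not overlap for 4.39% of all genes. For Cd163, 1 doxorubicin + ADU-S100 library was above the lowest control. The Cd163 log2 fold change was -1.67 (SE 0.69, edgeR unadjusted p = 0.0390, adjusted p = 1.00) for doxorubicin and -1.68 (SE 0.69, edgeR unadjusted p = 0.0382, adjusted p = 0.948) for doxorubicin + ADU-S100 versus control, and both used the same controls. Without control replicate 1 these values were -1.12 and -1.13. Slc39a14, an importer of iron not bound to transferrin, differed by 0.13 (SE 0.24) between doxorubicin + ADU-S100 and control.

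Among the export and oxidation genes, 4 of 7 were tested. Cp, the ferroxidase that loads exported iron onto transferrin, had 15.7, 100.1 and 20.5 CPM in control and 11.9, 18.9 and 405 CPM after doxorubicin + ADU-S100. Its high libraries in these groups were those high in fibroblast and sarcoma cell genes. For Cp the log2 fold change was 1.68 (SE 1.302), and it was -1.56 without doxorubicin + ADU-S100 replicate 3. Flvcr1, described as a heme exporter, differed by -0.34 (SE 0.30) in the same comparison.

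Of 7 tested genes of storage, chaperones and iron sensing, Aco1 (iron regulatory protein 1) differed by -0.14 (SE 0.18) on the log2 scale between doxorubicin + ADU-S100 and control. Ncoa4, the receptor that delivers ferritin to the lysosome, differed by -0.33 (SE 0.23), and Fbxl5, the iron sensor that marks Ireb2 protein for breakdown, by 0.51 (SE 0.42). Fbxl5 showed the same split as Slc11a1, with 236 and 362 CPM in doxorubicin + ADU-S100 replicates 1 and 2 and 92.1 CPM in replicate 3, against 138 to 197 CPM in control. Herc2, a ubiquitin ligase, differed by -0.32 (SE 0.25) between doxorubicin and control.

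Among 12 genes of heme synthesis and breakdown, Hmox1, heme oxygenase 1, which frees iron from heme, had 991, 929 and 530.2 CPM in control, 383, 702 and 770.4 CPM after doxorubicin, and 1054, 810.5 and 406 CPM after doxorubicin + ADU-S100. All groups overlapped, and the log2 fold change of doxorubicin + ADU-S100 versus control was -0.11 (SE 0.41). Blvrb, biliverdin reductase B, differed by 0.74 (SE 0.35, edgeR unadjusted p = 0.0597, adjusted p = 0.948) and Cpox, a late enzyme of heme synthesis, by -0.48 (SE 0.29). Among 9 mitochondrial genes of iron and iron-sulphur clusters, Abcb8, a transporter, differed by -0.34 (SE 0.26) between doxorubicin + ADU-S100 and doxorubicin.

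Among 18 genes of ferroptosis and glutathione, Alox5, the lipoxygenase that starts leukotriene synthesis, had 55.3, 42.3 and 57.3 CPM in control, 49.0, 38.6 and 27.5 CPM after doxorubicin, and 18.2, 30.8 and 16.5 CPM after doxorubicin + ADU-S100. Every doxorubicin + ADU-S100 library was below every control, and these 2 groups did not overlap for 8.33% of all genes. The log2 fold change was -1.24 (SE 0.30, edgeR unadjusted p = 0.00228, adjusted p = 0.948), and over all alternatives it was -1.57 to -1.07 with an adjusted p of 0.0923 (DESeq2) to 1.00. Versus doxorubicin it was -0.81 (SE 0.29, edgeR unadjusted p = 0.0217, adjusted p = 0.999). It was -0.43 without the library of each group highest in fibroblast genes.

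Nfe2l2, which encodes the oxidative stress regulator NRF2, had 253, 219 and 205 CPM in control and 214, 190.1 and 163 CPM after doxorubicin. After doxorubicin + ADU-S100 it had 290.3, 485 and 177 CPM, with replicate 3 below every control. Between doxorubicin + ADU-S100 and doxorubicin the log2 fold change was 0.75 (SE 0.33, edgeR unadjusted p = 0.0481, adjusted p = 0.999). Without doxorubicin + ADU-S100 replicate 2 it was 0.31. Slc7a11, the cystine transporter that feeds glutathione synthesis, differed by 0.54 (SE 0.56) from control and by 1.15 (SE 0.57, edgeR unadjusted p = 0.0718, adjusted p = 0.999) from doxorubicin. It belongs to the unique gene set of the study, chosen on these libraries as genes higher in doxorubicin + ADU-S100 than in doxorubicin. The edgeR fit here did not reach the p threshold of the study for this gene. Acsl4, which readies polyunsaturated fatty acids for membrane lipids, differed by -0.11 (SE 0.26) between doxorubicin + ADU-S100 and control.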

How the data were processed

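RNA was sequenced from CD45+ cells of WEHI-164 grafts in BALB/c mice, with 3 libraries in each of 3 groups. Per the labels, Trimmomatic (0.38) was used for trimming, HISAT2 (2.1.0) for alignment to mm10 and StringTie (2.1.3b) for quantification. The authors deposited raw read counts for each gene, without normalization. The kit keeps strand, but the strand setting of the counting is not given in the sources used here, so a gene and its antisense partner may share reads. Totals were 50110494 to 69456603 per library, and counting error was small beside the spread between replicates for all members.

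All 9 libraries entered one model of group means in edgeR (4.0.16, R 4.3.3), with TMM scaling, filterByExpr and the quasi-likelihood test, two-sided, adjusted over the 16373 genes tested. CPM values used TMM-scaled totals and log2 CPM a prior count of 2. SE was the log2 fold change divided by the square root of F. Alternatives were DESeq2 (1.42.0), limma-voom with quality weights (3.58.1), RLE scaling, other filters, only the 2 groups compared, a replicate block, a fit without haemoglobin and mitochondrially encoded genes, and fits that each left out 1 library. The scripts were tested on simulated data.

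The members and lists were chosen with earlier results of these data known. Pathway genes named were 9 set by symbol (Aco1, Fbxl5, Ncoa4, Hmox1, Cp, Hamp, Slc39a14, Acsl4 and Slc7a11) and, in each list, the 2 genes with the smallest p. One result that this rule selects is not reported here. The 3 genes most like each member by Pearson correlation were also named, leaving out symbols of predicted models. Gene positions came from the RefSeq annotation of GRCm38, and lengths and hairpins from GENCODE M21 (GRCm38).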

Additional observations from a re-analysis of the deposited data

How the results depend on the processing

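Member calls at an adjusted p under 0.05 stayed at 0 of 8 in every comparison under all alternatives. Of 432 log2 fold changes of members recomputed over 18 alternatives, 394 kept their direction and 38 changed it, in 11 of 24 differences, none of which was larger than 0.25 in size. For doxorubicin + ADU-S100 versus doxorubicin, Tfrc changed to -0.027 without haemoglobin and mitochondrially encoded genes, to -0.24 with limma-voom and to -0.15 with 2 libraries a group, and Slc11a2 to -0.02 with limma-voom. For doxorubicin versus control, Ftl1 changed to 0.042 with limma-voom and to 0.12 with 2 libraries a group, and Slc11a2 to 0.003 without haemoglobin and mitochondrially encoded genes and to 0.085 with 2 libraries a group. For doxorubicin + ADU-S100 versus control, limma-voom gave -0.079 for Slc11a2, 0.076 for Hmox1 and -0.67 for Cp, and 2 libraries a group gave 0.29 for Hmox1, -0.24 for Cp and 0.051 for Acsl4. The cause was not tested.

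Leaving out 1 library at a time changed the direction of 11 member differences, the largest 0.25 in size, and of 5 differences of named pathway genes, among them the largest, Cp (1.68). Versus control, doxorubicin + ADU-S100 ranged from -0.027 to 0.54 for Fth1, -0.11 to 0.35 for Slc11a2, -0.47 to 0.19 for Hmox1, -1.56 to 3.00 for Cp, -0.066 to 0.23 for Slc39a14, -0.37 to 0.078 for Acsl4 and -0.14 to 0.91 for Slc7a11. Versus doxorubicin it ranged from -0.082 to 0.48 for Fth1, -0.78 to 0.76 for Slc40a1, -0.38 to 0.35 for Tfrc, -0.26 to 0.46 for Slc11a1 and -0.072 to 0.34 for Slc11a2. Doxorubicin versus control ranged from -0.049 to 0.23 for Fth1, -0.22 to 0.17 for Ftl1, -0.23 to 0.19 for Slc11a2 and -0.17 to 0.37 for Gpx4. With 2 libraries left in a group, its spread is pooled with that of the other groups.

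Counts of iron handling genes past the thresholds of the study, 3, 0 and 1 with all libraries, became 1 with DESeq2, 1 with limma-voom and 2 with 2 libraries a group for doxorubicin + ADU-S100 versus doxorubicin, and 2 with 2 libraries a group for doxorubicin versus control. With 1 library left out they were 1 to 4, 0 to 4 and 0 to 1, and members past these thresholds were 0 to 1, 0 and 0 to 1. Over all genes, DESeq2 called 23, 4 and 2 at an adjusted p under 0.05 where edgeR called 0, a fit of only the 2 groups called 1 in doxorubicin + ADU-S100 versus control, and omission of a library called 0 to 1. Genes past the study thresholds, 355, 199 and 74, became 527, 342 and 173 with DESeq2 and 579, 399 and 213 with no filter. They became 260, 123 and 38 at CPM 1 or more in 3 libraries and 624, 573 and 310 with limma-voom. With 2 libraries a group they were 709, 679 and 298. Omission of a library gave 257 to 895, 154 to 678 and 44 to 211.

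No pairing of the libraries by replicate number was seen. The check cannot exclude a link between same-numbered libraries, because deviations from a group mean also carry differences in cell composition. Deviations of same-numbered libraries from their group means correlated from -0.60 to 0.38, and 1 of 9 libraries was most like its own number. With the replicate number as a block, 0 members were called, genes past the study thresholds were 265, 133 and 54, and Tfrc (-0.035) and Slc11a1 (-0.086) in doxorubicin + ADU-S100 versus doxorubicin and Slc11a2 (0.007) in doxorubicin versus control changed direction.

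Depth was not the limit for any member, since the lowest count was 205. The number of libraries, 3 per group, limits the precision.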
